A study of Mus musculus with 4 samples.

Results

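Ulk1, Ulk2, Atg2a, Atg2b, Atg3, Atg9a, Tfeb, Sqstm1, Lamp1 and Lamp2 are 10 genes of autophagy and the lysosome, and their N6-methyladenosine (m6A) peaks in mouse liver RNA are described here. They were chosen by symbol, with earlier results of these data known. Every peak that the deposited lists assign to one of those symbols was taken. A peak was present on 8 of the 10 genes, of 9650 genes with a peak in the whole series, and 40.8% of annotated protein-coding genes had one. The genes carried 11 of the 14693 peaks of Alkbh5-HKO livers and 13 of the 14057 peaks of Alkbh5flox/flox livers. Atg2a and Lamp1 had no peak in either list.

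The peaks came from methylated RNA immunoprecipitation sequencing (MeRIP-seq), in which fragments bound by an antibody to m6A are sequenced beside the unselected input. The HKO group was mice with the genotype label Alkbh5-HKO, and Alkbh5 encodes an m6A demethylase. The FF group was mice with a floxed Alkbh5 gene (Alkbh5flox/flox). Mice of both groups were 9 weeks old and had eaten normal chow, and RNA from 3 livers was pooled per genotype. Each genotype therefore had 1 pool, 1 immunoprecipitated (IP) library and 1 input library, 4 libraries in all. The label HKO is not spelled out, and the Cre driver and the deleted part of the gene are not given in the sources used here. The authors called the peaks of each genotype separately, IP against its own input, at a q-value of 0.05. The fold of a peak is the authors' enrichment of IP over input, and its q is given as a log10, where a more negative value is a stronger call. No replicate is given for either genotype, so differences between the lists are described with no p-value.

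Alkbh5 itself had 0 HKO peaks and 3 FF peaks. Of the hepatocyte markers examined, 6 of 8 had an HKO peak and 5 of 8 an FF peak, and Serpina1c had none. Markers of other liver cells also had peaks, namely 3 of 6 Kupffer cell and macrophage markers and 3 of 4 endothelial markers in each list, and 1 of 3 cholangiocyte markers in each list. Stellate cell markers had peaks in 3 of 4 cases in the HKO list and in 1 of 4 in the FF list. Adgre1, Cd68, Stab2, Reln, Krt19 and Epcam had no peak in either. Among all genes with a peak, 13.2% had HKO peaks but no FF peak, and 11.2% had FF peaks but no HKO peak. Some genes marked in 1 genotype are thus found throughout the series. Whether Alkbh5 or the markers depart from those shares was not tested. Peak lists hold no RNA levels and no read totals, so the depth is unknown, and the part of other cell types in any peak was not tested. A gene without a peak may have too few reads for a call.

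Autophagy encloses parts of the cytoplasm in a double membrane and delivers them to the lysosome. The ULK kinases start the process, ATG9A and the ATG2 proteins supply lipid to the growing membrane, ATG3 helps to attach LC3 to it, and SQSTM1 links cargo to LC3. LAMP1 and LAMP2 are the main glycoproteins of the lysosomal membrane, and TFEB is a transcription factor that activates genes of the whole pathway. In liver, autophagy supplies amino acids in fasting and clears damaged mitochondria, glycogen and lipid droplets. m6A is deposited on messenger RNA within a short sequence consensus, most often near stop codons, and it is known to affect RNA decay, splicing and translation.

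Most of the marked genes were marked in both lists. Of the 8 genes with a peak, 6 (Ulk1, Ulk2, Atg2b, Atg9a, Tfeb and Sqstm1) had peaks in both, against 75.6% of all genes with a peak. Lamp2 had an HKO peak but no FF peak, as 13.2% of all genes with a peak did, and Atg3 had an FF peak but no HKO peak, as 11.2% did. These shares stand near the background. Of the peaks, 9 of 11 HKO peaks (81.8%, 95% Wilson interval 52.3 to 94.9) overlapped an FF peak by at least 1 bp of exon on the same strand, against 71.5% of all HKO peaks. In the FF list 9 of 13 (69.2%, 42.4 to 87.3) overlapped an HKO peak, against 74.8% of all FF peaks. The intervals cover counting error only, and they treat peaks as independent although several lie on the same gene. Both counts rest on the same 9 overlapping pairs.

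**Figure D1:**
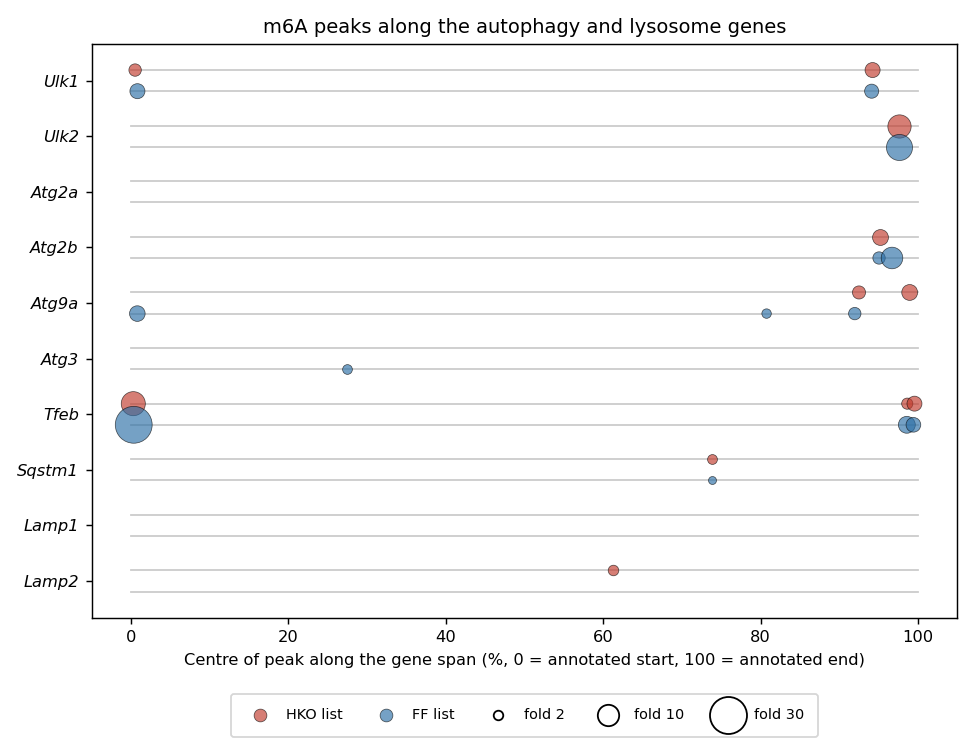
Position of every peak of the 10 genes. The horizontal axis gives the centre of the peak's exonic sequence as a percentage of the annotated gene span, each gene has an upper line for the HKO list (red) and a lower line for the FF list (blue), and the area of a circle is proportional to the fold enrichment of IP over input. Peaks of Ulk1, Ulk2, Atg2b and Tfeb lie near the ends of the span, as do all but 1 of Atg9a, and those of Atg3, Sqstm1 and Lamp2 lie further inside.

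Ulk1 encodes the main kinase that starts autophagy in response to mTORC1 and AMPK. The gene lies on the minus strand at chr5:110784489-110810120 (GRCm38.p6), and it had a peak near each end of its span in both lists. Near the gene end, the HKO peak at chr5:110785717-110786226 had a fold enrichment of 4.97 at log10 q -65.6, and the FF peak at chr5:110785777-110786226 had a fold of 4.36 at log10 q -42.5. These peaks were centred 1482 bp and 1512 bp before the annotated end, and they shared 450 bp, which is 88.2% of the bases that either covers. In each list it was the Ulk1 peak of smallest q.

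The start peak of Ulk1 was at chr5:110809940-110810030 in the HKO list, with a fold of 3.39 at log10 q -3.72, and at chr5:110809791-110810030 in the FF list, with a fold of 4.96 at log10 q -8.18. Both began 51 bases after the listed transcription start. The HKO peak spanned 91 bp, and the whole of it lay inside the FF peak of 240 bp. Within the HKO list the start peak had a lower fold than the end peak, and within the FF list it had a higher one. Folds of the lists come from separate IP reactions, so the values stand side by side and give no direction of change.

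Ulk2, the closest relative of Ulk1 and a kinase of the same step, lies on the minus strand at chr11:61775598-61855334. It had 1 peak in each list, at chr11:61777122-61777962 in HKO (fold 11.9, log10 q -58.8) and at chr11:61777122-61777992 in FF (fold 14.9, log10 q -52.5). Of all the overlapping pairs of the 10 genes this one matched most closely, with 747 bp in common, or 96.1% of the bases covered by either. Each peak was made of 2 exon blocks. Their first block, of 718 bp, had the same limits in both lists, and the other ran 29 bp into the neighbouring exon in the HKO list and 59 bp in the FF list. Unlike Ulk1, Ulk2 had no peak near its start.

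Atg9a encodes the transmembrane lipid scramblase whose vesicles seed the autophagosome. It lies on the minus strand at chr1:75180861-75192010 and had 2 HKO peaks and 3 FF peaks, of which 1 pair overlapped. The overlapping peaks were at chr1:75181609-75181788 in HKO (fold 3.78, log10 q -38.9) and at chr1:75181609-75181908 in FF (fold 3.38, log10 q -26.6), centred 837 bp and 897 bp from the gene end. An HKO peak at chr1:75180861-75181100 covered the last 240 bp of the annotated gene (fold 5.52, log10 q -9.81) and overlapped no FF peak. An FF peak at chr1:75191831-75192010 covered the first 180 bp of the gene (fold 5.35, log10 q -4.38), and another at chr1:75182903-75183112 lay 2146 bp from the end (fold 1.97, log10 q -2.98). Neither overlapped an HKO peak. The HKO peak that overlapped nothing thus lay at the end of Atg9a, while 1 of the 2 such FF peaks lay at its start.

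The FF start peak of Atg9a began at the listed transcription start itself. The sequence from 250 bases before that start to base 30 of the transcript (minus strand, chr1:75191981-75192260, RefSeq, GRCm38.p6) is shown because an FF peak entered it but no HKO peak did, with the bases inside the FF peak in capitals.
Atg9a: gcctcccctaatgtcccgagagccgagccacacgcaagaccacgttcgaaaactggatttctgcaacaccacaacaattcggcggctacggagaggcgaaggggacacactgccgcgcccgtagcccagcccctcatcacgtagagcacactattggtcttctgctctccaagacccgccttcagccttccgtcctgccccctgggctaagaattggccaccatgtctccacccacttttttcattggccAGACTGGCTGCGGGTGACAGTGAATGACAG
The transcribed bases held 3 of the 5-letter words of the m6A consensus, AGACT at base 1, TGACA at base 15 and TGACA at base 25. Of 32851 listed starts of all genes, 37.5% held at least 1 such word in the same 30 bases on the transcribed strand, and 61.9% on either strand. A match describes the letters and does not locate a modified base.

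Atg2b encodes a lipid transfer protein that bridges the endoplasmic reticulum and the growing membrane, and it lies on the minus strand at chr12:105613539-105685297. The HKO peak at chr12:105616920-105617190 (fold 5.53, log10 q -18.7) lay wholly within the FF peak at chr12:105616920-105617279 (fold 3.35, log10 q -10.4). The FF list had a further peak at chr12:105615843-105615993 with a fold of 10.2 at log10 q -1.75. That peak had the weakest q of all peaks of the 10 genes, and it overlapped no HKO peak. Atg2a, the paralogue of Atg2b with the same role, lies at chr19:6241478-6262304 and had no peak.

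Atg3 encodes the E2-like enzyme that joins LC3 to phosphatidylethanolamine. It lies on the plus strand at chr16:45158829-45188538 and had 1 peak, in the FF list, with a fold of 2.09 at log10 q -2.12. The peak covered 90 bp of exon in 3 blocks of 30, 50 and 10 bp that spread over 7458 bp of the genome, from 45162418 to 45169875. In fold it stood at percentile 4.35 of the FF list and in significance at percentile 5.71. The call of Atg3 in the FF list alone rests on this weak peak, and it was lost when a q of 1e-05 or less was required in both lists.

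Tfeb, the transcription factor of the set, lies on the plus strand at chr17:47737037-47792416 and had 3 peaks in each list, each overlapping a peak of the other list. No other gene of the 10 had more in either list. Near the gene start the HKO peak at chr17:47737097-47737306 had a fold of 12.7 at log10 q -4.81. The FF peak at chr17:47737097-47737980 had a fold of 29.8 at log10 q -14.1. Their fold was the highest of the 10 genes in each list, at percentile 60.5 of the HKO list and percentile 94.1 of the FF list. Both peaks began 60 bases after the first listed start of Tfeb.

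The FF start peak of Tfeb was in 2 blocks, behind different starts of the gene. The block of 220 bp lay behind the first listed start, and the block of 50 bp at chr17:47737931-47737980 began at the second listed start. The HKO peak had a single block of 210 bp, inside the larger FF block. The sequence from 250 bases before the second start to base 30 behind it (plus strand, chr17:47737681-47737960, RefSeq, GRCm38.p6) is shown for that reason, again with the bases inside the FF peak in capitals.
Tfeb: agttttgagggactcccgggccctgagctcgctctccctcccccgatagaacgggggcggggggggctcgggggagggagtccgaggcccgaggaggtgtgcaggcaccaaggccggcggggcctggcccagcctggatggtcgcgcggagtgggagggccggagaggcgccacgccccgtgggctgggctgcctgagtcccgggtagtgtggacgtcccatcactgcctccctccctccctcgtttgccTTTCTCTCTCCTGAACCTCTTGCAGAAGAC
These transcribed bases held 1 word of the consensus, GAACC at base 13. Tfeb has 3 listed starts, and no peak of either list entered the first 50 bases behind the other two.

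Near the end of Tfeb the lists each had a pair of peaks. The outer HKO peak at chr17:47791997-47792326 (fold 4.92, log10 q -12.8) had its centre 255 bp before the gene end, and the outer FF peak at chr17:47791937-47792237 (fold 4.74, log10 q -11.8) 329 bp from it. The inner HKO peak at chr17:47791549-47791758 had a fold of 2.75 at log10 q -3.28, and the inner FF peak at chr17:47791429-47791818 a fold of 6.27 at log10 q -4.71. The outer pair shared 241 bp (61.8% of the bases covered) and the inner pair 210 bp (53.8%). In the FF list the start peak was also the Tfeb peak of smallest q, while in the HKO list that was the outer end peak.

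Sqstm1 encodes the cargo receptor p62, which binds ubiquitin and LC3 and is itself degraded by autophagy. The gene lies on the minus strand at chr11:50200152-50210820, and its peaks were centred at the same base in both lists, 2789 bp from the gene end. The HKO peak at chr11:50202866-50203016 had a fold of 2.13 at log10 q -27.2, and the FF peak at chr11:50202837-50206033 a fold of 1.39 at log10 q -6.45. The HKO peak covered 151 bp of exon in a single block. The FF peak covered 209 bp of exon in 2 blocks, of 198 bp and 11 bp, spread over 3197 bp of the genome. The fold was the lowest of the 10 genes in each list and stood at percentile 3.40 of HKO peaks and 0.341 of FF peaks. In significance the same peaks stood at percentile 73.7 of HKO peaks and 45.0 of FF peaks. Once a minimum fold of 2 was applied to both lists, Sqstm1 kept its HKO peak and lost its FF peak.

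Lamp2 encodes a lysosomal membrane protein, 1 form of which is the receptor of chaperone-mediated autophagy. It lies on the minus strand at chrX:38399647-38456460 and had 1 peak, in the HKO list, at chrX:38421588-38421678 with a fold of 2.45 at log10 q -7.32. The peak spanned 91 bp and lay 21986 bp from the gene end and 34827 bp from the start, further from the nearer end of its gene than any other peak of the set. Lamp2 was the only gene of the 10 whose span another annotated gene overlaps, the long non-coding RNA LOC115489130. The lists assign to that RNA a minus-strand peak at chrX:38455853-38456003, 532 bp from the start of Lamp2, with a fold of 15.3 at log10 q -3.04 in the HKO list and a fold of 11.7 at log10 q -2.12 in the FF list. From which RNA those reads come cannot be told apart here, so the call of Lamp2 in the HKO list alone rests on that assignment. Lamp1, the other main lysosomal membrane glycoprotein, lies at chr8:13159161-13175338 and had no peak.

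**Figure D2:**
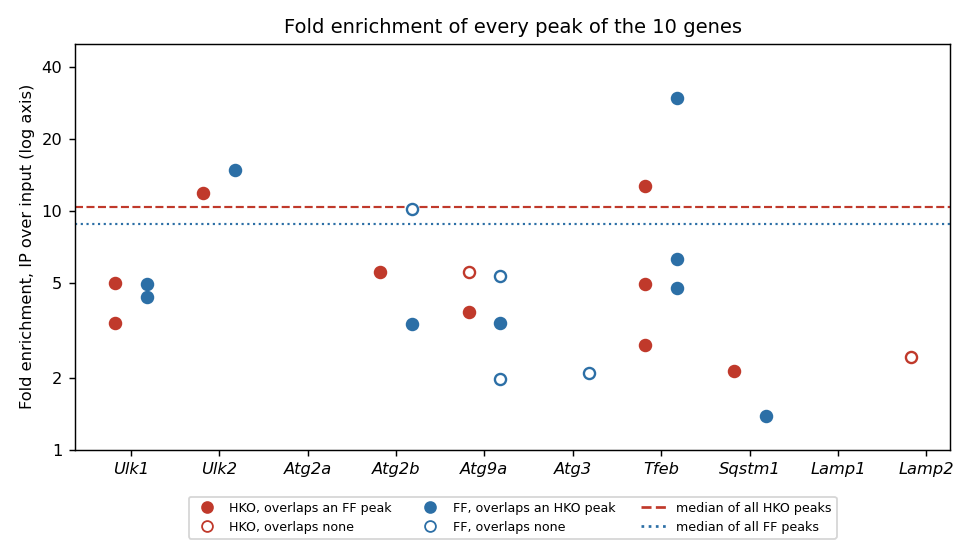
Fold enrichment of IP over input (log axis) for every peak of the 10 genes, HKO (red) left of FF (blue). Filled circles overlap a peak of the other list, open circles overlap none, and the dashed and dotted lines are the medians of all peaks, 10.4 in the HKO list and 8.80 in the FF list. Most circles lie under both lines, and Ulk2 and the start peak of Tfeb lie above them in each list.

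Most peaks of these genes had a fold under the median of their list, while their q lay on both sides of the list's median. In fold, 2 of 11 HKO peaks exceeded the median of all HKO peaks (10.4), and 3 of 13 FF peaks exceeded that of all FF peaks (8.80). The median fold of the set was 4.92 in the HKO list (range 2.13 to 12.7) and 4.74 in the FF list (1.39 to 29.8). In q, 7 of 11 HKO peaks and 7 of 13 FF peaks were below the median of their list, a log10 q of -8.70 and -7.79. At a q of 1e-05 or less there were 8 of 11 HKO peaks (72.7%, against 65.5% of all HKO peaks) and 8 of 13 FF peaks (61.5%, against 62.3% of all FF peaks), shares near those of the lists. The plot of ranks shows the low folds as points that gather at the left. The fold and the q of a peak both depend on its reads, whose number is not given, so these ranks are a description.

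**Figure D3:**
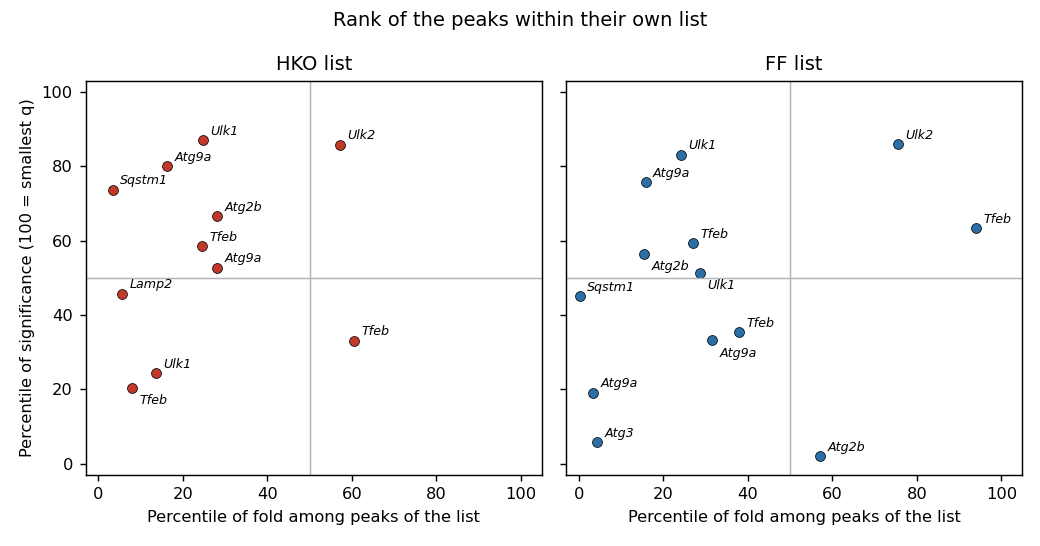
Rank of each peak of the 10 genes within its own list, HKO at the left and FF at the right. The horizontal axis is the percentile of fold enrichment and the vertical axis the percentile of significance (100 for the smallest q). The grey lines mark the middle of each list, and 9 of 11 HKO points and 10 of 13 FF points lie left of the vertical one.

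Peaks at gene ends and starts were counted beside the same shares of all peaks. A centre within 1000 bp of the annotated gene end was found for 4 of 11 HKO peaks (36.4%, against 30.9% of all HKO peaks) and 3 of 13 FF peaks (23.1%, against 26.6% of all FF peaks), all on Atg9a and Tfeb. With a window of 500 bp the 7 end peaks of the lists together became 3. A centre within 500 bp of the annotated start was found for 2 of 11 HKO peaks (18.2%, 95% Wilson interval 5.14 to 47.7, against 7.38% of all HKO peaks) and 3 of 13 FF peaks (23.1%, 8.18 to 50.3, against 15% of all FF peaks), on Ulk1 and Tfeb in both lists and on Atg9a in the FF list. Among peaks that overlapped none of the other list, 0 of 2 HKO peaks and 1 of 4 FF peaks were at a start, against 4.71% and 34.7% of all such peaks. At an end were 1 of 2 HKO peaks and 0 of 4 FF peaks, against 33.6% and 17.1%. Of the 10 listed starts of genes of the set with a peak, an HKO peak entered the first 50 transcribed bases of 0 (7.94% for all genes with a peak) and an FF peak those of 2 (16.4%). Those were the Atg9a and Tfeb starts shown above. So few peaks cannot set the genes apart from the lists.

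Overlapping peaks of the set matched in extent about as closely as those of the lists as a whole. The 9 overlapping pairs shared between 37.9% and 96.1% of the bases covered by either peak, with a median of 72.2%, against a median of 70.3% for all 11014 pairs of the series. In 6 of the 9 pairs at least 1 limit was the same base, against 42.2% of all pairs. Peaks of the set covered a median of 210 bp of exon in HKO and 270 bp in FF, against 269 bp and 241 bp for all peaks. Peaks made of 2 or more exon blocks numbered 1 of 11 in the HKO list (13.9% of all HKO peaks) and 4 of 13 in the FF list (17.4% of all FF peaks).

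The rest of the pathway was described from a list of 97 further autophagy and lysosome genes, chosen with earlier results of these data known. A peak was present on 69 of them (71.1%, against the 40.8% of protein-coding genes given above), on 66 in the HKO list and 61 in the FF list. How strongly the genes are expressed, which bears on whether a peak can be called, is not in the lists. Peaks in both lists were found on 58, in the HKO list alone on 8 and in the FF list alone on 3, or 84.1%, 11.6% and 4.35% of the 69, beside the 75.6%, 13.2% and 11.2% of all genes given above. The genes carried 112 HKO peaks and 88 FF peaks. Where a gene is given below with a fold in HKO and in FF, each is its highest in that list, and the values can belong to different peaks. A gene named for the highest fold of its role in a list was picked on that value. Its folds in HKO and FF therefore give no direction of change. Of the 58 genes in both lists, the peaks of highest fold overlapped on 38 and did not on 20. The same count was not made over all genes, so this split cannot set the pathway apart.

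**Figure D4:**
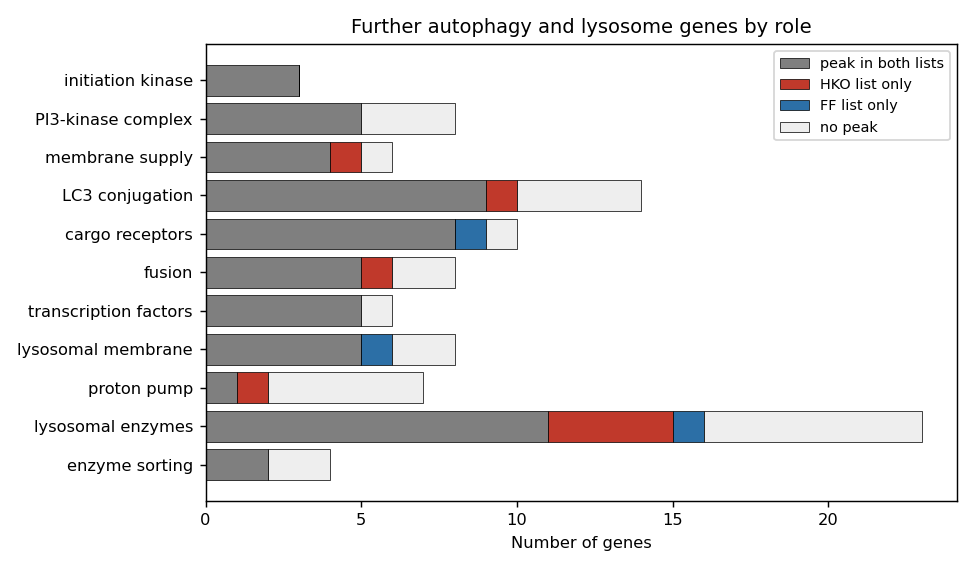
Number of further autophagy and lysosome genes in each role with a peak in both lists (dark grey), in the HKO list only (red), in the FF list only (blue) or with no peak (light grey). Every bar starts at 0 and its length is the number of genes in the role. The proton pump has 5 of 7 genes with no peak. The lysosomal enzymes, the largest role, have 16 of the 69 genes with a peak and 4 of the 8 in the HKO list only.

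Genes of the first steps of autophagy that had a peak had it in both lists, except Tmem41b. All 3 partners of the ULK kinases had peaks in both lists, with a highest fold of 23.4 in HKO and 11.2 in FF on Rb1cc1 (FIP200, the scaffold of the complex) and of 22.1 in HKO and 24.5 in FF on Atg13. Of 8 genes of the PI3-kinase complex 5 had peaks, all in both lists. Pik3r4, its regulatory subunit, had the highest fold there, on different peaks of the gene. The HKO peak of fold 78.1 overlapped an FF peak of fold 6.27, and the FF peak of fold 11.2 overlapped an HKO peak of fold 10.8. Of 6 membrane supply genes 4 had peaks in both lists, led in FF by Wipi2, a reader of phosphatidylinositol 3-phosphate (16.6 in HKO and 24.5 in FF). Tmem41b, a lipid scramblase of the endoplasmic reticulum, had an HKO peak (fold 28.0, log10 q -15.5) but no FF peak.

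LC3 conjugation genes had peaks in both lists in 9 of 14 cases. Among them the highest fold in FF was on Atg4c, an LC3 protease (13.7, overlapping an HKO peak of 16.4), whose highest HKO peak (25.5) overlapped no FF peak. The highest in HKO was on Atg10, the E2-like enzyme for ATG12, which had an HKO peak (26.3, log10 q -6.13) but no FF peak. Of 10 cargo receptors 8 had peaks in both lists, led by Retreg1, a receptor for endoplasmic reticulum (20.1 in HKO and 19.9 in FF). Bnip3, a mitochondrial receptor, had an FF peak (10.2, log10 q -1.94) but no HKO peak. Among 8 fusion genes 5 were in both lists, with Plekhm1 highest in HKO and Vps39 highest in FF (17.0 in HKO and 28.9 in FF). The Plekhm1 peak of fold 34.8 in HKO overlapped no FF peak, and its highest FF peak (10.6) overlapped an HKO peak of fold 6.58. Snap29, a SNARE of autophagosome fusion, had 2 HKO peaks, with a fold of 4.24 at the smaller q (log10 q -5.31), but no FF peak.

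Of 6 transcription factors 5 had peaks in both lists and Mitf had none. Foxo3, which activates autophagy genes, had the highest fold in HKO, and Tfec, a relative of TFEB, the highest in FF (35.6 in HKO and 42.3 in FF). The Foxo3 peak of fold 289 in HKO overlapped an FF peak of fold 28.0, and its highest FF peak (34.9) overlapped an HKO peak of fold 3.13. Of 8 lysosomal membrane genes 5 were in both lists. Among them the highest fold in HKO was on the potassium and proton channel gene Tmem175 (31.4 in HKO and 4.15 in FF). The highest in FF was on Slc38a9, an arginine sensor (6.36 in HKO and 19.6 in FF). Scarb2, the transporter of glucocerebrosidase to the lysosome, had an FF peak (4.18, log10 q -4.15) but no HKO peak. Of 7 proton pump genes 2 had a peak (28.6%, beside 40.8% of protein-coding genes), too few to set the role apart. These were Atp6ap1, an accessory subunit (5.26 in HKO and 15.7 in FF), and Atp6v0a1, which had an HKO peak (2.86, log10 q -6.85) but no FF peak.

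Lysosomal enzymes and their cofactors had peaks in both lists in 11 of 23 cases. Lipa, the acid lipase, had the highest fold in HKO (14.2 in HKO and 4.25 in FF), and Gusb, the beta-glucuronidase, the highest in FF (12.7 in HKO and 12.5 in FF). An HKO peak but no FF peak was found on Gaa, the acid glucosidase that degrades glycogen (12.7, log10 q -44.7). The same held for Asah1, the acid ceramidase (2.33, log10 q -3.04), and Grn, progranulin (1.75, log10 q -14.9). Tpp1, a peptidase, had 2 HKO peaks but no FF peak. Their fold was 2.69 at the smaller q (log10 q -7.38) and 11 on the other. Psap, which encodes the saposins, had an FF peak (4.57, log10 q -8.93) but no HKO peak. Of 4 enzyme sorting genes Igf2r (19.7 in HKO and 5.33 in FF) and Gnptab had peaks in both lists. On Gnptab the HKO peak of fold 16.1 overlapped an FF peak of 6.33, and the FF peak of fold 11.7 overlapped an HKO peak of 8.91.

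The further genes showed where peaks unique to a list lay. Of their 112 HKO peaks, 71 (63.4%) overlapped an FF peak, against 71.5% of all HKO peaks. Of their 88 FF peaks, 68 (77.3%) overlapped an HKO peak, against 74.8% of all FF peaks. Of their 41 HKO peaks that overlapped no FF peak, 0 were centred within 500 bp of the gene start and 17 within 1000 bp of the end. Of their 20 FF peaks that overlapped no HKO peak, 12 were at the start and 2 at the end. For the whole lists these shares were 4.71% and 33.6% in HKO and 34.7% and 17.1% in FF. The 3 genes with an FF peak alone, Bnip3, Scarb2 and Psap, had the centre of that peak 45 bp (Bnip3), 165 bp (Scarb2) or 119 bp (Psap) behind the start. Bnip3 and Scarb2 lost that peak when a q of 1e-05 or less was required, and Psap kept its own. Atg9a had its own unshared FF start peak at 90 bp. The lists differ in this way as a whole, and whether these genes differ from the rest was not tested.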

How the data were processed

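The authors called peaks from IP against input with exomePeak (version 2.16.0, q-value threshold 0.05), per the design text of the series. Genome build GRCm38.p6 and the tools HOMER 4.9.1, BWA 0.7.12 and fastp 0.19.11 are named in the submitters' processing notes. The design text and the sample protocols name different antibodies and library kits, which was not settled here. The deposited score column was used as a p-value, since its log10 matched the separately listed log10 p within 0.02. The q-value is deposited as a log10 score, at minus infinity for 305 HKO and 240 FF peaks, and the deposited fold is a ratio, IP to input, made by the authors. All of these are the authors' values. Ranks were taken within a list, while folds and q-values of the lists were set side by side and cut at common thresholds. No test between the lists was made on them.

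The comparison used pandas 2.3.3, scipy 1.17.1 and numpy 2.4.6 under Python 3.11.15, with figures by matplotlib 3.10.9. The overlap code was tested on copies of the HKO peaks, moved by a few bases or placed on an empty sequence. Strand handling was not tested in this way. Gene spans, listed starts and sequences are RefSeq's for GRCm38.p6, in which all 10 genes and all 97 further genes were found by symbol. Coordinates count from base 1. Distances run from the middle exonic base of a peak to the annotated gene start or end, so a peak can lie near a start inside the gene that the span does not show. A percentile is the share of peaks of the list with a fold at or below, or a q above, that of the peak. The consensus words searched were the 18 of 5 letters, with overlaps allowed. Each was made of A, G or T, then A or G, then AC, then A, C or T. The Atg9a and Tfeb starts were searched on the transcribed strand only. All listed starts were counted on that strand and on either strand. Named further genes are those with a peak in 1 list and none in the other and the gene of highest fold per role and list. The 10 genes and all lists were chosen with earlier results of these data known. Alternatives covered the q, the fold, the list length, the overlap and the windows. Position in untranslated or coding parts was not analysed here.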

Additional observations from a re-analysis of the deposited data

How the results depend on the processing

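Of 21 recomputed counts, 19 stayed within 1.5 times the value reported, with changes of exactly 1.5 times taken as within. Lists of equal length and the other overlap rules changed none of the counts they were applied to. Where q had to be 1e-05 or less, 1 gene of the set in place of 2 had peaks in a single list, since Atg3 lost its only peak and Lamp2 kept its own. With windows of 500 bp in place of 1000 bp at gene ends, 3 peaks in place of 7 counted there. With a fold of 2 or more in both lists, Sqstm1 joined Lamp2 in the HKO list alone. Among the further genes, 8 had HKO peaks alone and 3 FF peaks alone. The q of 1e-05 gave 12 and 3, and the genes changed: Asah1 left the HKO side, which Bnip3l, Ctsa, Pik3c3, Plekhm1 and Tmem175 joined, and on the FF side Wipi1 and Fundc1 took the place of Bnip3 and Scarb2. The fold of 2, chosen for these genes after seeing the data, gave 8 and 5, with Bnip3l in place of Grn on the HKO side and Becn1 and Npc2 added on the FF side. No paired analysis was possible because there was 1 pool per genotype, with no replicate number in the labels. The lists hold no read totals, so what depth limits is unknown.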

Other observations

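The promoters of the set were searched for CACGTG, the E-box at the core of the element that TFEB is known to bind and a word that reads the same on both strands. In windows from 250 bases before to 50 bases after each listed start, 2 of 12 starts of the 10 genes held it, those of Lamp1 and Atg3. Lamp1 had 4 copies and Atg3 had 2. Of all 32851 listed starts 7.15% held at least 1 copy, 195 held 2 or more and 8 held 4 or more. Lamp1 had no m6A peak and Atg3 had 1 weak peak in the FF list alone. The E-box count was examined after the peaks of both genes were known, and no relation between the measures was tested.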
